A study of Mus musculus with 12 samples.

Results

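The 10 chemokine genes described here are Cxcl1, Cxcl9, Cxcl10, Cxcl12, Cxcl13, Ccl2, Ccl5, Ccl6, Ccl9 and Cx3cl1, chosen by name from the CXC, CC and CX3C families among the 23420 genes of the count tables. Their transcripts were measured by RNA sequencing of whole liver in 12 libraries from mice of C57BL/6 background, which form 6 groups of 2 libraries. Every group carries floxed alleles of Gdown1, an RNA polymerase II-binding protein encoded by Polr2m. KO livers lost Gdown1 through Alb-Cre, a recombinase driven by the albumin promoter, which is active in hepatocytes and in embryonic precursors that also form bile duct cells, and FF livers kept it; both were taken at 7 weeks and carry no p53KO label. DKO livers are labelled as p53 knockouts that lost Gdown1 through Alb-Cre, and p53KO livers as p53 knockouts alone; both were taken at 8 weeks. DKO TAM livers are labelled as p53 knockouts that lost Gdown1 through Alb-CreERT2, a form of Cre that tamoxifen switches on, and p53KO TAM livers as p53 knockouts with no Cre named; both were taken 24 h after tamoxifen, and no age is given for them. Cre was present wherever Gdown1 was deleted, so effects of Cre and of Gdown1 loss cannot be told apart. Recombination was not measured by cell type.

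Chemokines are small secreted proteins that bind to sugar chains on cell surfaces and in the matrix and guide white blood cells through G protein-coupled receptors. In the liver they can come from Kupffer cells (the resident macrophages), sinusoidal endothelium, stellate cells, bile duct cells and hepatocytes, and many are switched on by inflammatory cytokines through NF-kB or by interferon. Others, such as Cxcl12 and Cxcl13, are made without an inflammatory stimulus and place cells within a tissue.

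Library totals ranged from 4939408 to 8776369 counts, and a floor of 3 counts per library stood at 0.342 to 0.607 CPM (counts scaled to a common library size) of the library total. Polr2m transcripts stood at 64.7 and 59.4 CPM in KO livers, against 100 and 96.7 CPM in FF livers, and at 58.1 and 60 CPM in DKO livers, against 89.1 and 103 CPM in p53KO livers. They stood at 65.9 and 54.6 CPM in DKO TAM livers, against 75.9 and 78.7 CPM in p53KO TAM livers, and only this last difference missed the threshold (log2 fold change -0.36 ± 0.13 SE, adjusted p = 0.063). As CPM of the library total, Polr2m had 69.3 and 60.2 in KO livers, against 89.9 and 82.6 in FF livers. On that scale it had 81.5 and 84.6 in DKO livers, against 73.5 and 85.3 in p53KO livers. DKO TAM livers had 72.1 and 59.5, against 65.8 and 66.8 in p53KO TAM livers. Both of these pairs of groups overlapped, so the fall of Polr2m in DKO livers depended on the scale. Trp53, the gene of p53, was lower in p53KO than in FF livers (-1.81 ± 0.31, adjusted p = 0.0087), but its transcripts did not follow the p53 label alone. They stood at 8.39 and 8.13 CPM in libraries labelled DKO, against 3.07 and 2.79 CPM in p53KO livers (1.48 ± 0.29, adjusted p = 0.0005), and at 8.96 and 10 CPM in libraries labelled DKO TAM, against 3.79 and 3.97 CPM in p53KO TAM livers (1.29 ± 0.28, adjusted p = 0.0039). They stood at 17.1 and 22.5 CPM in KO livers, against 13.1 and 7.95 CPM in FF livers (0.93 ± 0.24, adjusted p = 0.013). The DKO and DKO TAM libraries were thus above their p53KO controls, within the FF range and below both KO libraries. The labels do not say which part of Trp53 was removed, so these counts over the whole gene do not check the p53 genotype, and p53 status below is that of the labels. All 8 hepatocyte markers examined were detected in every group. CPM are scaled by TMM, a method that takes most genes as unchanged, and every log2 fold change below is on that scale with its SE. Genes were called at an adjusted p under 0.05 in the quasi-likelihood test of edgeR over the 13693 genes that passed a filter on low counts, and all 10 chemokine genes passed it. With library totals alone as the scale, all genes tested had a median at 0.28 for KO against FF, 0.78 for DKO against p53KO and 0.36 for DKO TAM against p53KO TAM, in place of 0.02, 0.01 and 0.01. In whole liver, fewer cells of a type and less RNA per cell cannot be told apart.

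After chronic loss of Gdown1 in livers labelled p53KO (DKO against p53KO), 6 of the 10 chemokine transcripts rose: Cxcl10, Ccl2, Ccl5, Ccl6, Ccl9 and Cx3cl1. Cxcl12 fell, a direction that turned with library totals alone. These are 7 calls among 10 genes, where 51.4% of all genes tested were called, 25.7% higher and 25.7% lower. Ccl5 and Cx3cl1 each had at most 9 counts in any library outside DKO and passed the filter through DKO libraries alone. A fall of either in DKO livers could hardly have been called. The median log2 fold change of the 10 genes was 1.05, against 0.01 over all genes tested. At 24 h after tamoxifen, Ccl6 and Cxcl13 rose and Cxcl9 and Ccl9 fell in DKO TAM against p53KO TAM livers, 4 of the 10, where 18.7% of all genes were called, 8.61% higher and 10.1% lower. The median of the 10 genes in that comparison was -0.15, against 0.01 over all genes.

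Without the p53KO label, the edgeR test called none of the 10 genes in KO against FF livers, where 14.8% of all genes were called, 6.92% higher and 7.88% lower. Unadjusted p was under 0.05 for 4 of them with edgeR (Cxcl10, Cxcl12, Ccl2 and Ccl9), for 5 with DESeq2 and for 4 with limma-voom, and none of these tools gave an adjusted p under 0.05. Their median log2 fold change was -0.31, against 0.02 over all genes. One gene was called with library totals alone (Ccl2, 2.08, adjusted p = 0.035) and one with the replicate number as a block (Ccl9, -0.41, adjusted p = 0.047).

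**Figure D1:**
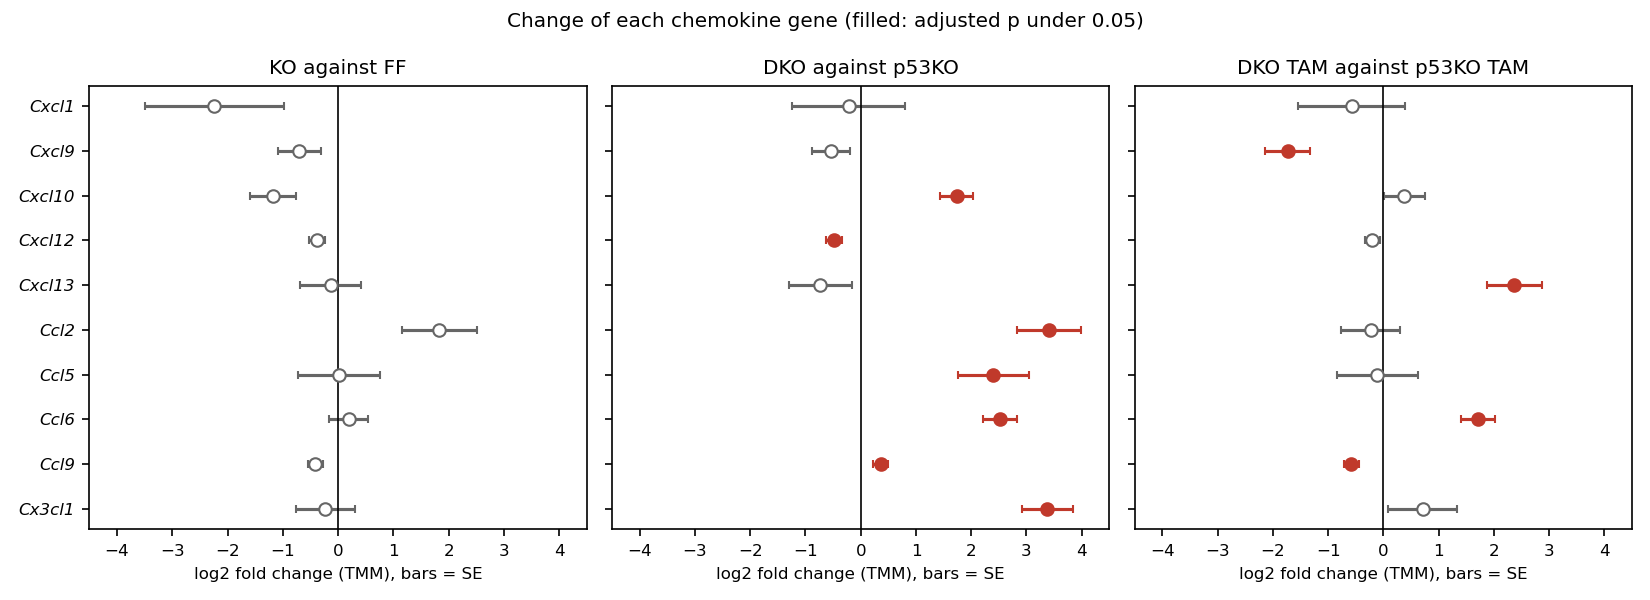
Log2 fold change (x axis, TMM scale) of each chemokine gene (y axis) in the 3 comparisons of Gdown1-deleted with control livers. Points are estimates, bars are SE and filled red points have an adjusted p under 0.05. The panel of DKO against p53KO holds 7 filled points, that of DKO TAM against p53KO TAM 4 and that of KO against FF none.

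Per transcript length, the chemokine pool of DKO livers was led by a different gene. Levels between genes are compared here as TPM, counts divided by gene length and scaled to a common total, with gene lengths from the count tables. Cxcl12 had the highest mean TPM of the 10 genes in KO, FF, p53KO, DKO TAM and p53KO TAM livers. It stood at 65.5 ± 5.16 TPM in p53KO livers (SD, n = 2), followed by Ccl9 at 48.8 ± 3.48, Cxcl1 at 32.8 ± 12.7 and Ccl6 at 19.7 ± 6.44 TPM. In DKO livers Ccl6 came first at 219 ± 35.6 TPM, followed by Ccl9 at 119 ± 11.6 and Cxcl12 at 89.1 ± 12.6 TPM, and the libraries of these 3 genes did not overlap. Cxcl1 and Cxcl10 followed at 54.6 ± 8.37 and 44.7 ± 8.05 TPM in DKO livers, with overlapping libraries. In DKO TAM livers Cxcl12 at 123 ± 10.7, Ccl6 at 105 ± 43.1 and Ccl9 at 91.6 ± 4.75 TPM formed a leading set in which neighbours overlapped, and in p53KO TAM livers Cxcl12 at 107 ± 17.8 overlapped with Ccl9 at 103 ± 2.02 TPM. Cx3cl1 had the lowest mean in every group but DKO, where Cxcl13 did.

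The 10 genes together came to 577 and 616 TPM in DKO livers, against 207 and 179 TPM in p53KO livers. Ccl6 alone made up 33.5% and 39.6% of that sum in the DKO libraries, against 11.7% and 8.48% in the p53KO libraries. The size of this gap depended on the scale. As CPM of the library total, not divided by gene length, the 10 genes came to 549 and 549 in DKO livers, against 296 and 291 in p53KO livers. As TMM-scaled CPM, which are also corrected for composition, they came to 391 and 389 in DKO livers, against 359 and 351 in p53KO livers.

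**Figure D2:**
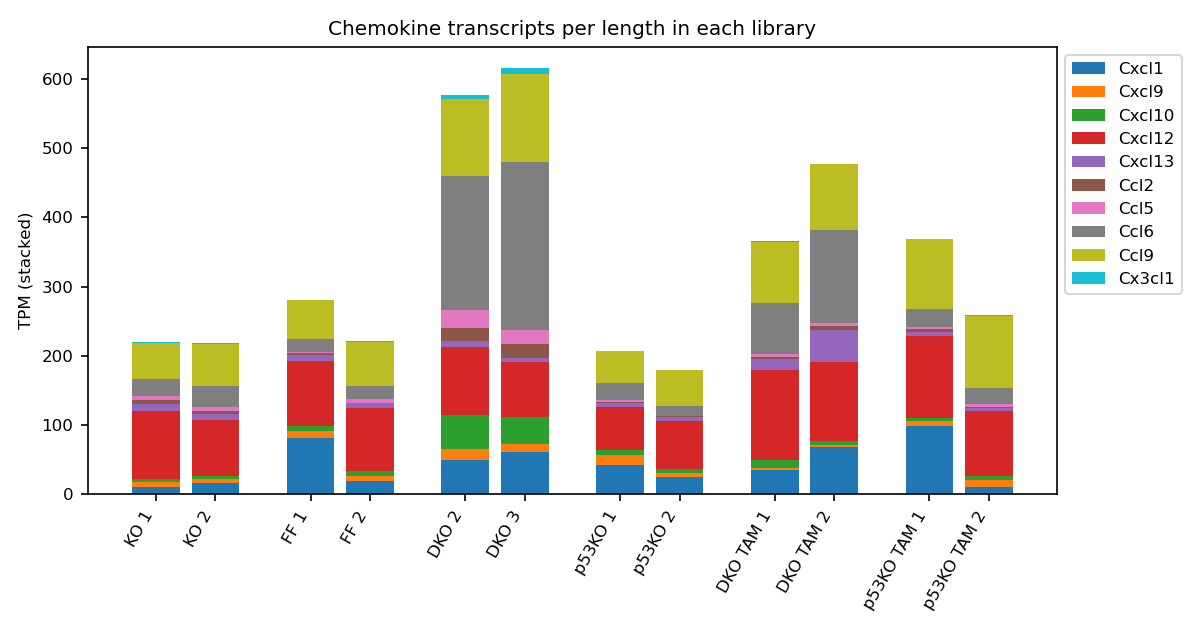
Stacked TPM (y axis) of the 10 chemokine genes in each of the 12 libraries (x axis), coloured by gene. The grey Ccl6 segment is largest in DKO replicates 2 and 3, where it makes up 33.5% and 39.6% of the bar.

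Cxcl9 and Cxcl10 attract T and NK cells through the receptor Cxcr3, and interferon-gamma induces both. They lie 18560 bases apart on the minus strand of chromosome 5 in mm10, Cxcl9 at chr5:92321331-92328079 and Cxcl10 at chr5:92346639-92348889. Between them, Cxcl10 alone was called in DKO against p53KO livers and Cxcl9 alone in DKO TAM against p53KO TAM livers. No difference between the genes was tested. The 250 bases before each annotated start are printed from RefSeq (GRCm38.p6, minus strand, chr5:92348890-92349139 for Cxcl10 and chr5:92328080-92328329 for Cxcl9), with capitals marking matches to the NF-kB consensus or to the interferon response core, which reads GAAA, any 2 bases, GAAA.
Cxcl10: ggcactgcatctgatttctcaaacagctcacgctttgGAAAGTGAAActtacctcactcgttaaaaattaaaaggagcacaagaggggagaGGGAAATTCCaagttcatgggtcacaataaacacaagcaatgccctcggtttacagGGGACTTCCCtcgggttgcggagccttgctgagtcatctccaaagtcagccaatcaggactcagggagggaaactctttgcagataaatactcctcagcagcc
Cxcl9: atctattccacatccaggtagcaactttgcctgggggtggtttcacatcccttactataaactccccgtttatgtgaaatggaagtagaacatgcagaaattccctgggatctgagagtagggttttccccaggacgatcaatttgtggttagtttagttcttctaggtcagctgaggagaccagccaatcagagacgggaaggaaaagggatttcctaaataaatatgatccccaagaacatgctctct
Both strands were searched. The Cxcl10 window holds the interferon response core at bases -213 to -204 and the NF-kB consensus at -159 to -150 and at -103 to -94, counted back from the start, and none of these matches overlap. The Cxcl9 window holds no match to either. Of 32851 windows of this length in the promoter table, 3.9% hold the NF-kB consensus and 2.98% hold the interferon response core. A match is a run of letters and no measured binding.

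Cxcl10 stood at 14.2 and 11.1 CPM in DKO livers, against 4.27 and 3.22 CPM in p53KO livers. Both DKO libraries were above every other library in the series. The log2 fold change was 1.74 ± 0.30 (adjusted p = 0.00014), and Cxcl10 was called under each of 14 alternatives. In KO livers Cxcl10 had 1.52 and 1.92 CPM, against 3.39 and 4.32 CPM in FF livers, without overlap but not called (-1.18 ± 0.42, adjusted p = 0.072). The effect in DKO minus the effect in KO was 2.92 ± 0.52 (adjusted p = 0.00094) and was called under each of 18 alternatives. At 24 h after tamoxifen Cxcl10 had 4.17 and 2.25 CPM in DKO TAM livers, against 2.19 and 2.92 CPM in p53KO TAM livers, and these groups overlapped (0.38 ± 0.37, adjusted p = 0.52). Art3 lies across Cxcl10 on the opposite strand, and the count file headers name no strand option. Art3 was not called in DKO against p53KO livers (0.23 ± 0.32, adjusted p = 0.58).

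Cxcl9 showed another pattern. It stood at 11.8 and 8.56 CPM in DKO livers, against 20.5 and 8.58 CPM in p53KO livers, where p53KO replicate 1 was high and replicate 2 lay level with the lower DKO library (-0.54 ± 0.34, adjusted p = 0.2). With library totals alone its sign turned (0.23), as it did without p53KO replicate 1 (0.24). Without p53KO replicate 2 the value was -1.02. At 24 h it stood at 3.54 and 3 CPM in DKO TAM livers, against 8.6 and 13.8 CPM in p53KO TAM livers, and both DKO TAM libraries were lower than the other 10. The log2 fold change was -1.73 ± 0.41 (adjusted p = 0.012). This call was lost without p53KO TAM replicate 2 (adjusted p = 0.086), DKO TAM replicate 1 (0.055) or DKO TAM replicate 2 (0.085). In KO livers Cxcl9 had 7.62 and 7.11 CPM, against 14.5 and 9.84 CPM in FF livers (-0.70 ± 0.39, adjusted p = 0.27).

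Ccl2, also called MCP-1, draws monocytes out of the blood through Ccr2. It lies on chromosome 11 at chr11:82035577-82037452, plus strand. Ccl2 stood at 3.99 and 4.45 CPM in DKO livers, against 0.341 and 0.429 CPM in p53KO livers, which rest on 47 and 52 counts against 2 and 2 counts. The DKO libraries were the highest of the 12. Ccl2 rose by 3.41 ± 0.58 on the log2 scale (adjusted p = 0.00013), called under each of 14 alternatives. Ccl2 stood at 2.03 and 1.54 CPM in KO livers, against 0.904 and 0.173 CPM in FF livers, without overlap and without a call (1.83 ± 0.68, adjusted p = 0.082). This value was 3.25 without FF replicate 1 and 0.98 without FF replicate 2. It stood at 0.833 and 1.38 CPM in DKO TAM livers, against 1.6 and 0.835 CPM in p53KO TAM livers, which overlap (-0.23 ± 0.54, adjusted p = 0.82), and the sign turned with library totals alone (0.12). The effect in DKO exceeded that in DKO TAM by 3.64 ± 0.85 on the log2 scale (adjusted p = 0.0045), a call lost without p53KO TAM replicate 1.

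Ccl5, also called RANTES, attracts T cells and monocytes through receptors that include Ccr1 and Ccr3. It lies on chromosome 11 at chr11:83525779-83530518, minus strand. It stood at 3.48 and 2.65 CPM in DKO livers, against 1.02 and 0 CPM in p53KO livers. The count of 0 in p53KO replicate 2 allows up to 0.534 CPM of the library total. The rise was 2.40 ± 0.64 on the log2 scale (adjusted p = 0.0051), and without that library it was 1.55 with an adjusted p of 0.051. Ccl5 stood at 1.02 and 1.15 CPM in KO livers, against 0.452 and 1.55 CPM in FF livers, and at 0.833 and 0.751 CPM in DKO TAM livers, against 0.874 and 0.835 CPM in p53KO TAM livers. Neither of these differences was called (adjusted p = 0.99 and 0.94).

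Ccl6 and Ccl9 are neighbouring genes of mouse for chemokines of myeloid cells that act through Ccr1. They lie 9250 bases apart on the minus strand of chromosome 11, Ccl6 at chr11:83587886-83593087 and Ccl9 at chr11:83572917-83578636. The 250 bases before each start are printed (RefSeq, GRCm38.p6, minus strand, chr11:83593088-83593337 for Ccl6 and chr11:83578637-83578886 for Ccl9), because these are the only genes of the 10 called in both chronic and acute deletion under the p53KO label and they moved differently; capitals mark an NF-kB consensus match.
Ccl6: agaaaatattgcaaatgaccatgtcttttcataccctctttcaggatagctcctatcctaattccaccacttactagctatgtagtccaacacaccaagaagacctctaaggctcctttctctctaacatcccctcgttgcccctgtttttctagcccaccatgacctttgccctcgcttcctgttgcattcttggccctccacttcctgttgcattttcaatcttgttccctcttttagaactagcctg
Ccl9: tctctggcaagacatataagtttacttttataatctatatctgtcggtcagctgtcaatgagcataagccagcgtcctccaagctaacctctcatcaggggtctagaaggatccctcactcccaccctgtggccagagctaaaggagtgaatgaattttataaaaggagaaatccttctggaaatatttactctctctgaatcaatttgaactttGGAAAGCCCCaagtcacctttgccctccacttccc
The Ccl9 window holds the NF-kB consensus at bases -35 to -26, read on the opposite strand, and the Ccl6 window holds neither motif. Among the other windows available, only that of Cxcl1 holds the NF-kB consensus, at -71 to -62 with an overlapping match on the opposite strand, which leaves the windows of Cxcl12, Cxcl13 and Cx3cl1 with no match.

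Ccl6 stood at 71.5 and 90.9 CPM in DKO livers, against 17.4 and 10.5 CPM in p53KO livers, and at 36.5 and 68 CPM in DKO TAM livers, against 16.3 and 15.4 CPM in p53KO TAM livers. All 4 libraries labelled DKO or DKO TAM were above the other 8, and both comparisons were without overlap. The log2 fold change was 2.52 ± 0.31 in DKO (adjusted p = 6.8e-05) and 1.71 ± 0.31 in DKO TAM livers (adjusted p = 0.0039), each called under all 14 alternatives. Without the p53KO label Ccl6 had 12.5 and 16.7 CPM in KO livers, against 12.4 and 13.1 CPM in FF livers, and the groups overlapped (0.19 ± 0.36, adjusted p = 0.79). The effect in DKO minus the effect in KO was 2.33 ± 0.48 (adjusted p = 0.0066), called under each of 18 alternatives. The effect in DKO minus the effect in DKO TAM was 0.81 and not called (adjusted p = 0.2), and without DKO TAM replicate 2 it was called (1.31, adjusted p = 0.0067). E230016K23Rik, which lies across Ccl6 on the opposite strand, had 3 counts in DKO replicate 2 and 0 in the other 11 libraries.

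Ccl9 moved little in comparison and in opposite directions. It stood at 85.9 and 99.4 CPM in DKO livers, against 69.7 and 74.4 CPM in p53KO livers (0.36 ± 0.14, adjusted p = 0.037). It stood at 90.6 and 99.9 CPM in DKO TAM livers, against 139 and 145 CPM in p53KO TAM livers (-0.58 ± 0.14, adjusted p = 0.0076). The groups did not overlap in either comparison, and the highest levels of the series were in the p53KO TAM libraries. The rise in DKO livers was not called with DESeq2 (adjusted p = 0.057), without p53KO replicate 1 (0.17) or 2 (0.07) or without DKO replicate 3 (0.27). The fall in DKO TAM livers was not called with library totals alone (-0.23, adjusted p = 0.18), without p53KO TAM replicate 2 (0.054) or without DKO TAM replicate 1 (0.059). The difference between these effects was 0.94 ± 0.19 (adjusted p = 0.002), called under each of 18 alternatives. Ccl9 stood at 57.6 and 71.9 CPM in KO livers, against 78.2 and 93.3 CPM in FF livers (-0.41 ± 0.14, adjusted p = 0.064), and was called lower without KO replicate 2 (-0.59, adjusted p = 0.04).

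Cx3cl1, or fractalkine, is made as a membrane-anchored protein that holds cells bearing Cx3cr1 and can be shed. It lies on chromosome 8 at chr8:94772180-94782426, plus strand. It stood at 5.68 and 6.5 CPM in DKO livers, against 0.683 and 0.429 CPM in p53KO livers, which rest on 67 and 76 counts against 4 and 2 counts. No other library of the series exceeded 1.58 CPM. Cx3cl1 rose by 3.38 ± 0.46 on the log2 scale (adjusted p = 1.3e-05), called under each of 14 alternatives. Cx3cl1 stood at 1.52 and 0.769 CPM in KO livers, against 1.58 and 1.21 CPM in FF livers, and at 0.729 and 1 CPM in DKO TAM livers, against 0.437 and 0.626 CPM in p53KO TAM livers. Neither was called (adjusted p = 0.83 and 0.48). The effect in DKO exceeded that in KO by 3.62 ± 0.74 (adjusted p = 0.0026), called under each of 18 alternatives.

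Cxcl12, also called SDF-1, retains and places blood-forming and immune cells through Cxcr4 and is scavenged by Ackr3. It lies on chromosome 6 at chr6:117168535-117181368, plus strand. It stood at 180 and 149 CPM in DKO livers, against 221 and 239 CPM in p53KO livers, without overlap (-0.48 ± 0.14, adjusted p = 0.01). This value was -0.27 with upper quartile scaling (adjusted p = 0.13) and 0.28 with library totals alone, and the call was also lost without DKO replicate 3 (-0.36). It stood at 258 and 222 CPM in KO livers, against 310 and 314 CPM in FF livers (-0.38 ± 0.14, adjusted p = 0.09). In DKO TAM livers it had 318 and 288 CPM, against 386 and 309 CPM in p53KO TAM livers (-0.20 ± 0.14, adjusted p = 0.37), and this sign turned with library totals alone (0.15).

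Cxcl13 attracts B cells through Cxcr5 and builds lymphoid follicles. It lies on chromosome 5 at chr5:95956939-95961068, plus strand. It stood at 6.15 and 18.9 CPM in DKO TAM livers, against 2.77 and 1.88 CPM in p53KO TAM livers, and both DKO TAM libraries were above the other 10 while differing from each other 3.08-fold. The rise was 2.37 ± 0.50 on the log2 scale (adjusted p = 0.006). A fit of these 4 libraries alone did not call it (adjusted p = 0.11), nor did fits without p53KO TAM replicate 1 (0.052) or 2 (0.06); without DKO TAM replicate 2 the value was 1.36. Cxcl13 stood at 2.46 and 1.54 CPM in DKO livers, against 3.41 and 3.22 CPM in p53KO livers (-0.73 ± 0.57, adjusted p = 0.31; 0.04 with library totals alone). It stood at 3.9 and 4.04 CPM in KO livers, against 4.97 and 3.8 CPM in FF livers (-0.13 ± 0.55, adjusted p = 0.91; 0.13 with library totals alone). The effect in DKO minus the effect in DKO TAM was -3.09 ± 0.77 (adjusted p = 0.011), a call lost without p53KO replicate 1.

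Cxcl1, also called KC, recruits neutrophils through Cxcr2. It lies on chromosome 5 at chr5:90891245-90893115, plus strand. Its level differed widely between control replicates. Cxcl1 stood at 3.39 and 5.77 CPM in KO livers, against 35.5 and 8.64 CPM in FF livers, at 11.9 and 14.9 CPM in DKO livers, against 19.8 and 10.9 CPM in p53KO livers, and at 11.1 and 22.4 CPM in DKO TAM livers, against 42.4 and 4.59 CPM in p53KO TAM livers. The p53KO TAM libraries differed 9.23-fold and the FF libraries 4.11-fold. No comparison was called: the log2 fold changes were -2.24 ± 1.26 for KO against FF (adjusted p = 0.31), -0.22 ± 1.03 for DKO against p53KO (adjusted p = 0.88; 0.55 with library totals alone) and -0.57 ± 0.97 for DKO TAM against p53KO TAM (adjusted p = 0.74). Without p53KO TAM replicate 1 the last was 1.85, and without FF replicate 1 the first was -0.93.

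**Figure D3:**
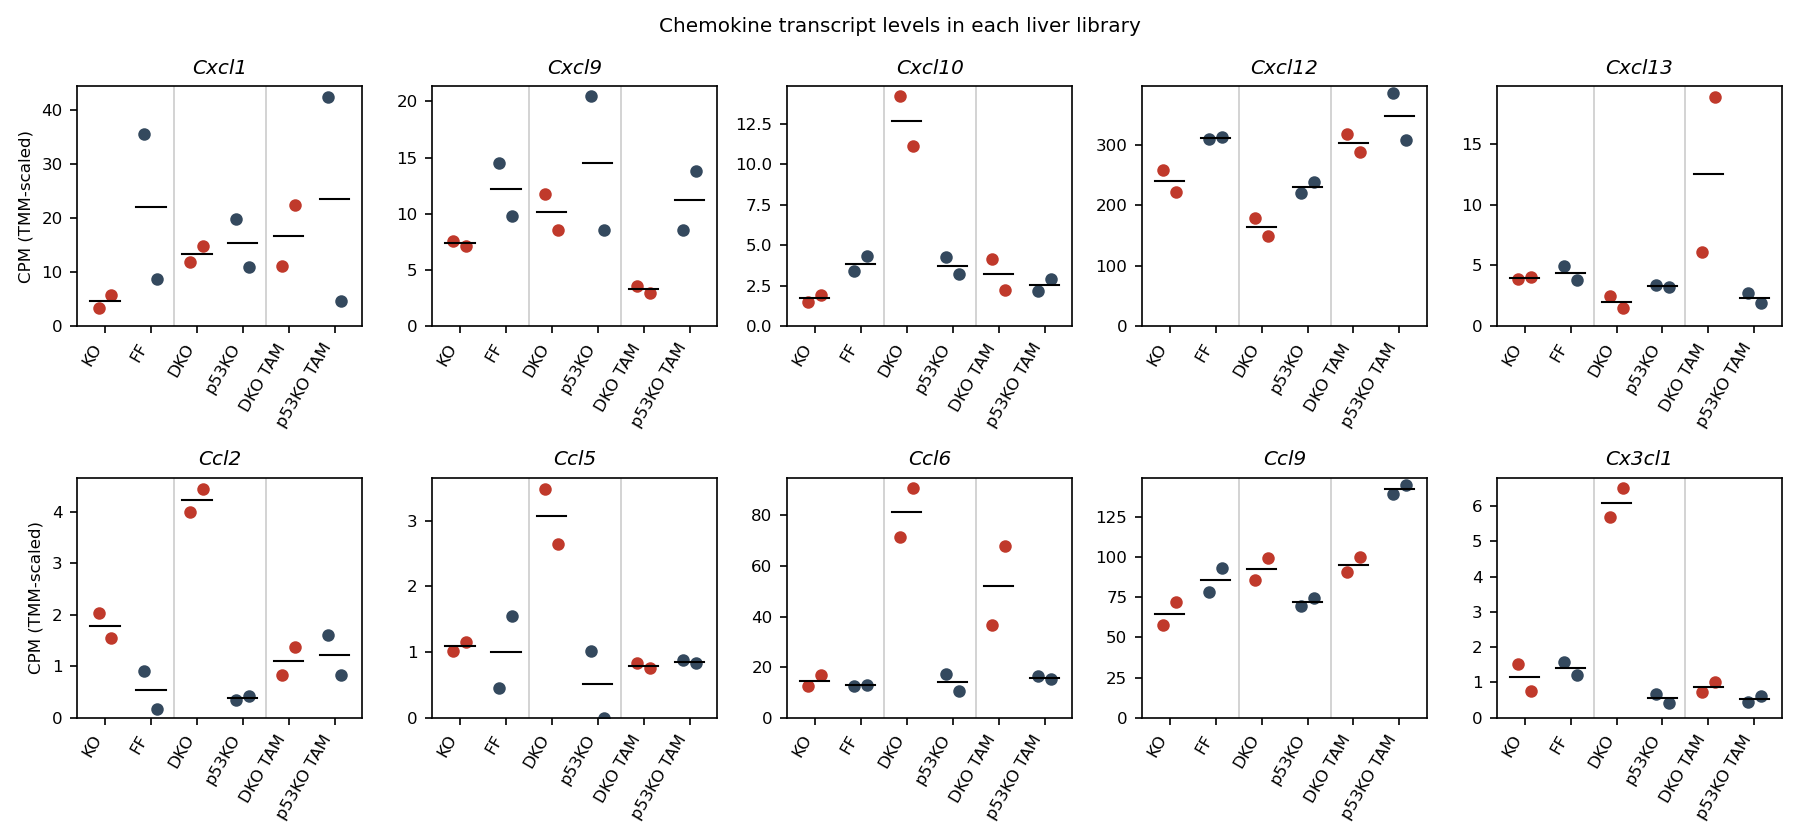
TMM-scaled CPM (y axis, from 0, scaled for each gene) of the 10 chemokine genes in the 6 groups (x axis); each point is 1 library, red for Gdown1-deleted and dark blue for control livers, and the line is the mean of 2. Cxcl10, Ccl2, Ccl5 and Cx3cl1 are highest in both DKO libraries, Ccl6 is high in DKO and DKO TAM, and Cxcl13 is high in DKO TAM.

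Of the 4 genes called for the effect in DKO minus the effect in KO (Cxcl10, Ccl6, Ccl9 and Cx3cl1), all were higher, where 22.7% of all genes were called, 9.75% higher and 12.9% lower. Of the 5 called for the effect in DKO minus the effect in DKO TAM, Cxcl10, Ccl2, Ccl9 and Cx3cl1 were higher and Cxcl13 was lower (the calls of Cxcl10 and Cx3cl1 were each lost in 7 of the 8 fits that left out a library), where 27.6% of all genes were called, 13.4% higher and 14.2% lower. Age and experiment go with p53 in the first, and Cre form, tamoxifen and age with the second, and these cannot be told apart. Cx3cl1 passed the filter through DKO libraries alone, so its differences could hardly have been called lower. Both tallies thus favour higher values for this gene. The control groups of the 7-week and 8-week experiments were compared as well: for p53KO against FF none of the 10 genes was called by edgeR, DESeq2 or limma-voom, where edgeR called 0.862% of all genes, 0.592% higher and 0.27% lower, and 1 had an unadjusted p under 0.05 with each tool.

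Receptors of several of the ligands that rose in DKO livers were higher there too. Of 24 chemokine receptor genes listed, 14 were tested, and 7 rose and none fell in DKO against p53KO livers. The median of the 14 was 1.35 on the log2 scale. Over all genes tested, 51.4% were called there, 25.7% higher. With library totals alone 13 of the 14 were called, all higher. Some receptors passed the filter through DKO libraries alone, such as Ccr1 with 34 and 45 counts there and at most 7 in any other library. The filter thus favoured rises in DKO livers in this tally and median. Cx3cr1, the receptor of Cx3cl1, stood at 13.4 and 12.4 CPM in DKO livers, against 1.2 and 1.5 CPM in p53KO livers (3.26 ± 0.44, adjusted p = 1.6e-05). Ccr2, the receptor of Ccl2 and a marker of monocytes, stood at 15.6 and 19 CPM in DKO livers, against 2.73 and 4.29 CPM in p53KO livers (2.32 ± 0.27, adjusted p = 2.8e-06). Ccr1, shared by Ccl5, Ccl6 and Ccl9, rose by 2.77 ± 0.62 on the log2 scale. Cxcr4 rose by 3.11 ± 0.43 and Ackr3 by 1.64 ± 0.47, while their ligand Cxcl12 had the value of -0.48 given above. Cxcr2 (0.92 ± 0.52) and Ccr3 (1.09 ± 0.61) were not called (adjusted p = 0.15 for each). Cxcr3, the receptor of Cxcl9 and Cxcl10, and Cxcr5, that of Cxcl13, had 28 and 51 counts over the 12 libraries and were below the filter.

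In KO against FF livers none of the 14 receptors was called by edgeR, DESeq2 or limma-voom, and an unadjusted p was under 0.05 for 1, 1 and 2 of them with these tools. Of all genes, edgeR called 14.8% there and 18.7% in DKO TAM against p53KO TAM livers. In DKO TAM against p53KO TAM livers 1 was lower, Xcr1, a receptor of dendritic cells (-2.13 ± 0.55, adjusted p = 0.013), a call that DESeq2 did not make. Ccr1 had 0.104 and 0.25 CPM in DKO TAM livers, against 1.02 and 0.835 CPM in p53KO TAM livers (adjusted p = 0.077), while its ligand Ccl6 was higher in DKO TAM livers. Cx3cr1 had 6.67 and 4.38 CPM in DKO TAM livers, against 2.48 and 2.71 CPM in p53KO TAM livers (adjusted p = 0.078).

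**Figure D4:**
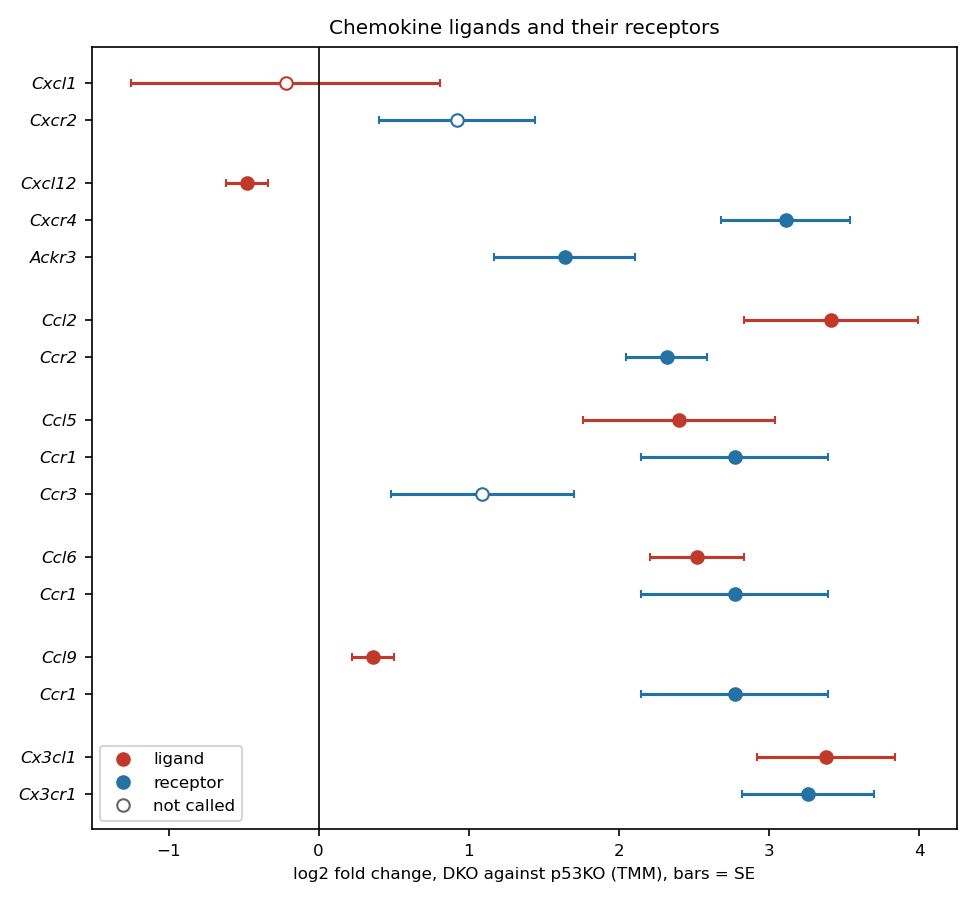
Log2 fold change in DKO against p53KO livers (x axis, TMM scale) of chemokine ligands (red) and their receptors (blue), grouped by ligand down the y axis, with SE bars and open points for genes not called. Ccr1 is drawn beside each of its 3 ligands; Cx3cl1 and Cx3cr1 lie at 3.38 and 3.26, and Cxcl12 at -0.48 beside Cxcr4 at 3.11.

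Of 31 other chemokine ligand genes, 8 passed the filter. In DKO against p53KO livers 6 of the 8 rose and none fell, with a median of the 8 at 1.46 on the log2 scale. Of all genes tested, 51.4% were called there, 25.7% higher. DESeq2 called 3 and limma-voom 4 of the 8 higher. Ccl22, with 19 and 17 counts in DKO livers and at most 3 in any other library, passed the filter through DKO libraries alone. Cxcl2 passed it through DKO and DKO TAM libraries alone. This tally and median therefore favour rises in DKO livers. Cxcl16, a membrane-bound ligand of Cxcr6, stood at 41.8 and 37.9 CPM in DKO livers, against 16.6 and 12.2 CPM in p53KO livers (1.46 ± 0.18, adjusted p = 5.4e-06). Cxcl14 rose by 3.68 ± 0.85 on the log2 scale (adjusted p = 0.0056). Cxcl2, which shares the receptor Cxcr2 with Cxcl1 and lies 10784 bases from it, had 76 counts in DKO against 1 count in p53KO livers, a ratio of scaled counts of 34.1 with a 95% exact binomial interval of 5.93 to 1363. It had 29 counts in DKO TAM against 2 counts in p53KO TAM livers, a ratio of 9.6 with an interval of 2.43 to 83.1; both comparisons were called (adjusted p = 0.00017 and 0.016). These intervals cover counting error only.

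Cxcl11, the third ligand of Cxcr3, lies 10656 bases from Cxcl10 and was called higher in all 3 comparisons. It stood at 6.78 and 8.27 CPM in KO livers, against 2.94 and 4.15 CPM in FF livers (1.05 ± 0.30, adjusted p = 0.024), and it was the only one of the 8 called there. It stood at 4.49 and 5.39 CPM in DKO livers, against 2.56 and 3.22 CPM in p53KO livers (0.78 ± 0.30, adjusted p = 0.038). It stood at 10 and 11.1 CPM in DKO TAM livers, against 6.12 and 4.59 CPM in p53KO TAM livers (0.95 ± 0.25, adjusted p = 0.014). Cxcl9 and Cxcl10 were below their controls in KO livers on this scale and were not called. Ccl28, a mucosal chemokine, was the third gene called in DKO TAM livers (2.07 ± 0.44, adjusted p = 0.0039), where DESeq2 called 2 of the 8 higher and library totals alone gave 6. Over all genes, 14.8% were called in KO against FF and 18.7% in DKO TAM against p53KO TAM livers.

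Markers of several liver cell types rose in DKO livers, and those of others fell or were mixed. Of all genes, 51.4% were called in DKO against p53KO livers, 25.7% higher and 25.7% lower. Of 12 Kupffer cell and macrophage markers, 11 rose, and the list summed to 1325 to 1385 CPM in DKO livers, against 586 to 623 CPM in p53KO livers. All 11 stellate cell and fibroblast markers rose, summing to 1454 to 1522 CPM in DKO livers, against 405 to 420 CPM in p53KO livers. Of 7 cholangiocyte markers tested 6 rose, and the list summed to 278 to 309 CPM in DKO livers, against 68 to 69 CPM in p53KO livers. Of 7 dendritic cell markers 4 rose and none fell, and of 5 neutrophil markers tested 2 rose. The dendritic cell marker Cd209a, at a mean of 1.28 CPM in DKO and 0.3 CPM in p53KO livers, passed the filter through DKO libraries alone. The neutrophil marker Cxcr2, with 20 and 31 counts in DKO livers, would not have passed the filter without DKO libraries. The dendritic cell and neutrophil tallies thus favour rises there. Of 7 monocyte markers tested 6 rose and 1 fell, Fn1, which hepatocytes also make in quantity. The monocyte list, with Fn1 in it, summed to 2269 to 2517 CPM in DKO livers, against 3891 to 3918 CPM in p53KO livers. All 8 hepatocyte markers fell, summing to 23680 to 27036 CPM in DKO livers, against 101738 to 101803 CPM in p53KO livers. Alb made up most of these sums, at means of 17476 and 71646 CPM in turn. The median log2 fold change of the 8 hepatocyte markers was -1.98. Sinusoidal endothelial markers were mixed, with 2 of 10 higher and 3 lower, near the share of all genes called. With library totals alone 6 of them were higher and 0 lower. Of 6 T and NK cell markers tested 2 rose (1 with DESeq2) and none fell, and of 2 B and plasma cell markers tested 1 rose. The T cell marker Cd8a, called higher, averaged 2 CPM in DKO and 0.0854 CPM in p53KO livers. A fall of Cd8a could hardly have been called. None of the Kupffer cell, stellate cell, cholangiocyte or hepatocyte markers was at 0 counts in any group. The part of these cell types in the chemokine values was not tested.

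In DKO TAM against p53KO TAM livers 18.7% of all genes were called, 8.61% higher and 10.1% lower. There, where Ccl6 and Cxcl13 were higher, 5 of 8 hepatocyte markers fell. The hepatocyte list summed to 28548 to 30163 CPM in DKO TAM livers, against 91074 to 93071 CPM in p53KO TAM livers. Alb made up most of these sums, at means of 17060 and 72668 CPM in turn. The median log2 fold change of the 8 hepatocyte markers was -0.75. Of 7 dendritic cell markers 2 fell, and of 7 cholangiocyte markers tested 1 rose. In the same comparison 1 of 12 Kupffer cell and macrophage markers rose, with sums of 967 to 983 CPM in DKO TAM livers, against 772 to 860 CPM in p53KO TAM livers. None of the 7 monocyte markers tested was called there by edgeR, DESeq2 or limma-voom, and 0 had an unadjusted p under 0.05 with any of them. Of 11 stellate cell markers none rose and 2 fell, and 4 of 10 sinusoidal endothelial markers fell, with sums of 725 to 737 CPM in DKO TAM livers, against 1007 to 1093 CPM in p53KO TAM livers. Of 2 B and plasma cell markers tested 1 fell, and the list summed to 4.26 to 4.79 CPM in DKO TAM livers, against 11.5 to 13.2 CPM in p53KO TAM livers, beside the higher Cxcl13. With library totals alone 8 of the 12 Kupffer cell markers were called higher in that comparison, and of the stellate cell markers 3 were higher and 1 was lower. The part of these cell types was not tested.

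In KO against FF livers, where none of the 10 chemokine genes was called, 7 of the 8 hepatocyte markers fell. Of the 12 Kupffer cell and macrophage markers 2 rose and none fell, against 10 higher with library totals alone, and 1 each of the monocyte, stellate cell and sinusoidal endothelial markers rose. Over all genes 14.8% were called there, 6.92% higher and 7.88% lower. Counts of 1 or 2 in these lists lie near the share called.

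Among the 10175 tested genes that averaged 5 CPM or more, those whose 3 log2 fold changes lay nearest to those of Ccl6 were H2-Q1, Serpinb6b and Plk4, at root mean square differences of 0.32, 0.35 and 0.36 on the log2 scale. For Ccl9 they were Slc50a1, Txnip and Ddhd1, at 0.05, 0.05 and 0.07. These distances run over the 3 comparisons of 12 libraries and carry no test.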

How the data were processed

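Total RNA of whole liver was made into libraries with the SMARTer Stranded Total RNA kit, per the labels' protocols. Per the submitters' processing notes, the tools were CASAVA 1.82, HISAT2 and featureCounts, with mm10 (GRCm38). The deposited values are raw counts, whole reads per gene, 1 file per library. The headers of 4 files name featureCounts 1.6.4 with no strand option, and 8 files have no program line. The titles of 8 libraries carry different numbers of unstated meaning, and nothing states that libraries came from separate animals, so p-values cover only the variation among the libraries at hand, which may be technical. DKO replicates are named by the numbers 2 and 3 of their titles.

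Counts of all 23420 genes were filtered (filterByExpr, minimum count 10), scaled by TMM and fitted in 1 group-means model over 12 libraries (edgeR 4.0.16 in R 4.3.3, robust quasi-likelihood F test, 6 residual degrees of freedom; the common coefficient of biological variation was 0.124), with Benjamini-Hochberg adjustment over 13693 genes. SE was taken as the size of each log2 fold change over the root of its F value. The spread is pooled over groups of 2 libraries. The method was tested on simulated data. Alternatives, run with edgeR, limma 3.58.1 and DESeq2 1.42.0, are other scalings, filters, tools and thresholds, only the libraries compared, the replicate block, each library left out, and composition genes left out.

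The 10 genes, the lists, the markers and the motifs were chosen with earlier results of these data known. By rule, the 10 genes, their receptors, Polr2m and Trp53 were named, with up to 4 called genes of smallest p per list and comparison, and the 3 nearest genes of any chemokine called in at least 2 main comparisons; fewer were printed, and Cxcl11 in DKO livers, Ccr1 and Art3 stand beside values they share. Promoter windows came from RefSeq (GRCm38.p6), which matched 8 of the 10 genes. Some genes of the lists are counted but not reported here by name.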

Additional observations from a re-analysis of the deposited data

Results flagged for a closer look

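Each value here is a difference between effects of Gdown1 loss in separate experiments that passed the edgeR interaction test, on the log2 scale with its SE. Cx3cl1 passed the filter on low counts through DKO libraries alone, so its differences could hardly have been called lower. For chronic deletion, the effect under the p53KO label exceeded that without it by 2.92 ± 0.52 for Cxcl10 (adjusted p = 0.00094), by 2.33 ± 0.48 for Ccl6 (adjusted p = 0.0066), by 0.77 ± 0.20 for Ccl9 (adjusted p = 0.01) and by 3.62 ± 0.74 for Cx3cl1 (adjusted p = 0.0026). The Ccl9 value was not called without DKO replicate 3 (0.66), FF replicate 2 (0.63) or KO replicate 1 (0.61).

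The effect of chronic minus acute deletion was 1.36 ± 0.49 for Cxcl10 (adjusted p = 0.048), -3.09 ± 0.77 for Cxcl13 (adjusted p = 0.011), 3.64 ± 0.85 for Ccl2 (adjusted p = 0.0045), 0.94 ± 0.19 for Ccl9 (adjusted p = 0.002) and 2.67 ± 0.88 for Cx3cl1 (adjusted p = 0.032). Of 18 alternatives each, the call was lost in 10 for Cxcl10 and in 8 for Cx3cl1, in 1 for Cxcl13 and in 1 for Ccl2; with DESeq2 the values were 1.41 for Cxcl10 and 2.73 for Cx3cl1.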

How the results depend on the processing

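Calls of Cxcl10, Ccl2, Ccl6 and Cx3cl1 in DKO and of Ccl6 in DKO TAM livers held under all 14 alternatives run for each. For KO against FF the number of the 10 genes called was 1 with library totals alone, 1 with the replicate block and 0 to 1 with a library left out. For DKO against p53KO it ran from 5 to 7 with a library left out, for DKO TAM against p53KO TAM from 1 to 3, for the effect in DKO less the effect in KO from 3 to 5, and for p53KO against FF it stayed at 0. For the chronic effect less the acute one it was 3 with DESeq2, 2 at an adjusted p under 0.01 and 2 to 5 with a library left out. The causes were not tested. Without p53KO replicate 1 the only p53KO library had 0 counts of Ccl5, so its fitted value of 7.46 is no bound.

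The replicate numbers pair nothing that the labels state. Deviations of same-numbered libraries correlated at 0.11 for KO and FF, -0.071 for DKO and p53KO and -0.013 for DKO TAM and p53KO TAM. Such correlations cannot exclude a pairing or a shared batch. With the replicate block, 7 genes were called for DKO against p53KO, 4 for DKO TAM against p53KO TAM, 4 for the effect in DKO less the effect in KO, 6 for the chronic effect less the acute one and 0 for p53KO against FF, where Cxcl10 turned to 0.31.

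With library totals alone, log2 fold changes turned sign for Cxcl1 (0.55), Cxcl9 (0.23), Cxcl12 (0.28) and Cxcl13 (0.04) in DKO against p53KO, for Cxcl12 (0.15), Ccl2 (0.12) and Ccl5 (0.23) in DKO TAM against p53KO TAM, for Cxcl13 (0.13) and Cx3cl1 (0.02) in KO against FF, and for Cxcl12 in both differences of effects (0.41 against KO, 0.13 against DKO TAM). Of these, only Cxcl12 in DKO against p53KO was a called value. Upper quartile scaling turned Cxcl12 for DKO less KO (0.09), and limma-voom turned Cxcl1 for DKO less DKO TAM (-0.11).

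With a library left out, values that turned sign, none of them called with every library in, ranged as follows. Cxcl1 ran from -0.58 to 0.28 in DKO against p53KO, -1.35 to 1.85 in DKO TAM against p53KO TAM, -2.08 to 1.12 in DKO less DKO TAM and -1.18 to 0.85 in p53KO against FF. Cxcl9 ran from -1.02 to 0.24 in DKO against p53KO, -0.32 to 0.94 in DKO less KO and -0.48 to 0.77 in p53KO against FF. Cxcl10 ran from -0.15 to 0.73 in DKO TAM against p53KO TAM and -0.28 to 0.16 in p53KO against FF, and Cxcl12 from -0.26 to 0.02 in DKO less KO. Cxcl13 ran from -0.33 to 0.06, Ccl5 from -0.52 to 1.23, Ccl6 from -0.05 to 0.38 and Cx3cl1 from -0.83 to 0.13 in KO against FF. Ccl2 ran from -0.60 to 0.37 in DKO TAM against p53KO TAM. In p53KO against FF, Ccl2 ran from -1.21 to 1.07, Ccl5 from -5.96 to 0.31 and Ccl6 from -0.28 to 0.44. DESeq2 gave no adjusted p for Ccl2 and Ccl5 in p53KO against FF, and a fit of only the libraries compared left out genes under its filter. Depth limits Ccl2, Ccl5 and Cx3cl1, whose control libraries held 0 to 11 counts.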

Other observations

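Among genes that cut or hold chemokines, Mmp12, a macrophage elastase that trims chemokines, averaged 143 ± 12.3 CPM in DKO livers and 0.622 ± 0.638 CPM in p53KO livers (SD, n = 2; log2 fold change 7.92 ± 0.36, adjusted p = 3.7e-10). Dpp4, a protease that clips Cxcl9, Cxcl10 and Cxcl12, averaged 128 ± 16.5 CPM in DKO livers and 397 ± 10.2 CPM in p53KO livers (-1.63 ± 0.15, adjusted p = 1.6e-07). Sdc4, a syndecan whose heparan sulphate binds chemokines, averaged 298 ± 29.5 CPM in DKO livers and 1094 ± 186 CPM in p53KO livers (-1.88 ± 0.15, adjusted p = 3.7e-08). Sdc1, another syndecan, averaged 412 ± 124 CPM in KO livers and 129 ± 18.6 CPM in FF livers (1.68 ± 0.19, adjusted p = 2.8e-05). Of the 11 such genes tested, 6 rose and 3 fell in DKO livers, 1 rose and 2 fell in DKO TAM livers, and 3 rose and 2 fell in KO livers, each against its control. With library totals alone these were 7 and 3, 3 and 0, and 5 and 1. Of all genes, 51.4%, 18.7% and 14.8% were called in these comparisons in turn.

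Of 22 NF-kB and interferon regulators tested, 7 rose and 4 fell in DKO against p53KO livers, a share near the 51.4% of all genes called there, and their median change was 0.01 on the log2 scale; under scaling by library totals 18 rose and 1 fell. Tnfaip3, an inhibitor that NF-kB induces, averaged 21.2 ± 2.61 CPM in DKO livers and 5.6 ± 1.25 CPM in p53KO livers (1.90 ± 0.26, adjusted p = 1.2e-05), and Nfkb2 rose by 1.30 ± 0.21. Chuk, a kinase subunit that activates NF-kB, averaged 162 ± 15 CPM in DKO livers and 343 ± 46.4 CPM in p53KO livers (-1.08 ± 0.14, adjusted p = 6.2e-06), and Irf8, a factor of macrophages and dendritic cells, rose by 1.66 ± 0.22. Of 19 inducing cytokines and receptors tested, 6 rose and 3 fell in DKO livers, also near the 51.4% of all genes. With library totals alone 14 rose and 0 fell. Tnf, with 16 and 15 counts in DKO livers and at most 7 in any other library, passed the filter through DKO libraries alone. The tally of these 19 genes thus favours rises in DKO livers. Ifngr1, a chain of the interferon-gamma receptor, rose by 1.16 ± 0.14 (adjusted p = 3.5e-06), and Il18 fell by 1.08 ± 0.19. In KO against FF livers Irf9, a factor of the interferon response, fell by 0.99 ± 0.16 (adjusted p = 0.00061) and Irf5 by 1.15 ± 0.30 (adjusted p = 0.016).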
